A study of Homo sapiens with 6 samples.

Results

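The genes of bone morphogenetic protein (BMP) signalling described here were taken by name, 10 in all: the ligands BMP2 and BMP4, the receptors BMPR1A and BMPR2, the pseudoreceptor BAMBI, the secreted antagonists GREM1 and NOG, and the transcriptional targets ID1, ID2 and ID3. Their members were the array's probe sets that the platform table pairs with a single one of these symbols, 17 of 41091 probe sets with 1 symbol, for 9 of 19775 genes. BMPR2 had 6, BMP2, GREM1 and ID2 had 2 each, and BMP4, BAMBI, NOG, ID1 and ID3 had 1 each. BMPR1A was not analysed here, and 1 probe set that lists ID2 beside its pseudogene ID2B was left out.

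Expression was measured on 3 arrays of 10A/143B and 3 arrays of 468/143B. Both are cybrids, cells made by fusing an enucleated donor of mitochondria with 143B p0, a form of the thymidine kinase-deficient osteosarcoma line 143B that lacks mitochondrial DNA. The mitochondria of 10A/143B came from MCF10A, a non-cancerous breast epithelial line, and those of 468/143B from the metastatic breast cancer line MDA-MB-468. Donors of both cybrids had been enucleated with actinomycin D, and the fusions were grown in medium that contained bromodeoxyuridine and lacked uridine. The series' title frames the question as what non-cancerous mitochondria do to tumour properties of metastatic cells. Whether each cybrid was 1 clone is not given in the sources used here.

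BMPs are secreted dimers that assemble type I and type II serine/threonine kinase receptors. The activated type I receptor phosphorylates SMAD1, SMAD5 and SMAD9, which enter the nucleus with SMAD4 and switch on targets such as the ID genes. ID proteins lack a DNA-binding region and hold E proteins in inactive pairs, and BMPs are known above all for driving bone formation, the lineage of an osteosarcoma.

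The 250 bases before the transcription start of the 3 ID genes and of BAMBI are shown because these are textbook BMP-induced genes whose differences between the cybrids were not all in 1 direction. The sequences are those of RefSeq on GRCh38.p14, read 5′ to 3′ on the gene's strand, with the palindrome GGCGCC, a GC-rich sequence found in BMP response elements, and CCAAT (or ATTGG, its reverse complement) in capitals.
ID1 (chr20:31605039-31605288, + strand): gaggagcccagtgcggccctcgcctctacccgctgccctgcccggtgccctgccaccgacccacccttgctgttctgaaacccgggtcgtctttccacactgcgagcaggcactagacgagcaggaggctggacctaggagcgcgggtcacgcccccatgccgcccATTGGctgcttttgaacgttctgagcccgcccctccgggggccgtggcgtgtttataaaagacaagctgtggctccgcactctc
ID2 (chr2:8681806-8682055, + strand): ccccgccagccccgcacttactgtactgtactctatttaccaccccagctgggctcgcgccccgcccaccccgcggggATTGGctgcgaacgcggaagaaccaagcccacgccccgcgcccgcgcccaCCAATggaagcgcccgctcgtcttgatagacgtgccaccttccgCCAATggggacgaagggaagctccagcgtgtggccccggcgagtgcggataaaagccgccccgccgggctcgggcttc
ID3 (chr1:23559502-23559751, - strand): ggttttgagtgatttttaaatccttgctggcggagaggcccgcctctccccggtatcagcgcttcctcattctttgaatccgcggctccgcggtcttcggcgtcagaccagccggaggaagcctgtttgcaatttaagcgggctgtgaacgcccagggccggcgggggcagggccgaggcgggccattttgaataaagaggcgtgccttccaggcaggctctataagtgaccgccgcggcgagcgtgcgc
BAMBI (chr10:28677271-28677520, + strand): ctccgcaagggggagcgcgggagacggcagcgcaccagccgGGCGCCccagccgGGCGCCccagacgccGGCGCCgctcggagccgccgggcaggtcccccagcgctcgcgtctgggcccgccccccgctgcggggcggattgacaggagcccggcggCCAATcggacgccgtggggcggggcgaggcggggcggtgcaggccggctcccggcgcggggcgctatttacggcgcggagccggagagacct

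Both strands were searched, and no match of GGCGCC overlapped one of CCAAT in these windows. GGCGCC occurred 3 times before BAMBI, at positions -209, -196 and -181 from the transcription start, and not in the windows of ID1, ID2 or ID3. Bases farther upstream were not searched, so sites there would be missed. It occurred once before BMPR2, once before the first of 3 listed starts of BMP4 (position -232) and 2 times before the first of 2 listed starts of GREM1. Of 35116 promoter windows in the table, GGCGCC was held by 16.4%. The CCAAT sequence, found in 32.0% of all windows, occurred 3 times before ID2, once each before ID1 and BAMBI and not before ID3. The shorter CAGAC, which contains the SMAD-binding AGAC and which 38% of windows held, occurred once before ID3, 2 times before BAMBI and not before ID1 or ID2.

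Array medians were 21.7 to 24.4 intensity units in 10A/143B and 20.4 to 21.4 in 468/143B. Replicates 2 and 3 were near duplicates in both groups: above a log2 level of 8 the SD of their difference was 0.08 (10A/143B) and 0.09 (468/143B), against 0.26 to 0.28 for either of them minus replicate 1. Nothing in the labels says that the arrays came from separate cultures, so p-values measure only how far these arrays scatter, possibly for technical reasons. Calls are from the fit to 6 arrays. That fit treats replicates 2 and 3 as separate samples, although their consensus correlation was 0.67, so its p-values may be too small. Beside it, "averaged" gives the adjusted p or count from the fit in which replicates 2 and 3 of a group were averaged to 1 sample (2 against 2). The marker lists were mixed. Of osteoblast and osteosarcoma markers, VIM had mean intensities of 8687 in 10A/143B and 8418 in 468/143B and RUNX2 513.5 and 604.9, but COL1A2 only 8.49 and 8.76. SPARC had 1483 and 2354, SPP1 352 and 222, COL1A1 88.6 and 52.5 and ALPL 23.2 and 42.6. Of basal markers of MCF10A, KRT5 stood at 1.00 and 1.36, KRT14 at 16.5 and 10.6 and ITGB4 at 52.1 and 29.9. Of epithelial markers, KRT18 was bright in both (4908 and 6198) and KRT8 had 206 and 439. EPCAM had 55.3 and 36.8 and KRT7 52.5 and 48.1. The rest of that list was dim, with CDH1 at 7.92 and 14.9, KRT19 at 3.24 and 14.9, ESRP1 at 4.11 and 6.07 and CLDN4 at 3.69 and 1.79. Log2 values are log2(intensity + 16), on which a fold change understates the change of dim probe sets, and differences are 10A/143B minus 468/143B each with its fitted standard error (SE).

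In 10A/143B, BMPR2 and ID1 were higher, whereas BMP2, BAMBI, GREM1, NOG, ID2 and ID3 were lower than in 468/143B. Of the 17 probe sets, 13 passed an adjusted p of 0.05 (limma, Benjamini-Hochberg over 41091 probe sets), 5 higher and 8 lower. That is 76.5% of the members, where 31.0% of all probe sets passed, 18.6% higher and 12.4% lower. Most members were bright, however, and 6 of the 17 belong to BMPR2 alone. A level filter that dropped dim probe sets kept 14 members, 5 higher and 8 lower. It kept 20546 probe sets in all, 7010 higher and 5023 lower. The 31.0% is thus a low yardstick for these members, and the part of brightness in the excess was not tested. Averaged, 9 of the 17 members passed, 2 higher and 7 lower, and all 9 were among the 13. Of all probe sets 17.9% passed averaged, 11.7% higher and 6.14% lower. In 14 the arrays of the cybrids did not overlap, as in 42.8% of all probe sets. At least 1 probe set passed in 8 of the 9 genes, BMP4 being the exception, and in 0 genes did probe sets pass in both directions. The median difference of the 17 was -0.27, beside 0.00 for all probe sets, and the median size regardless of sign was 0.71, beside 0.28. The directions depended on the gene, so the median describes no common shift.

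**Figure D1:**
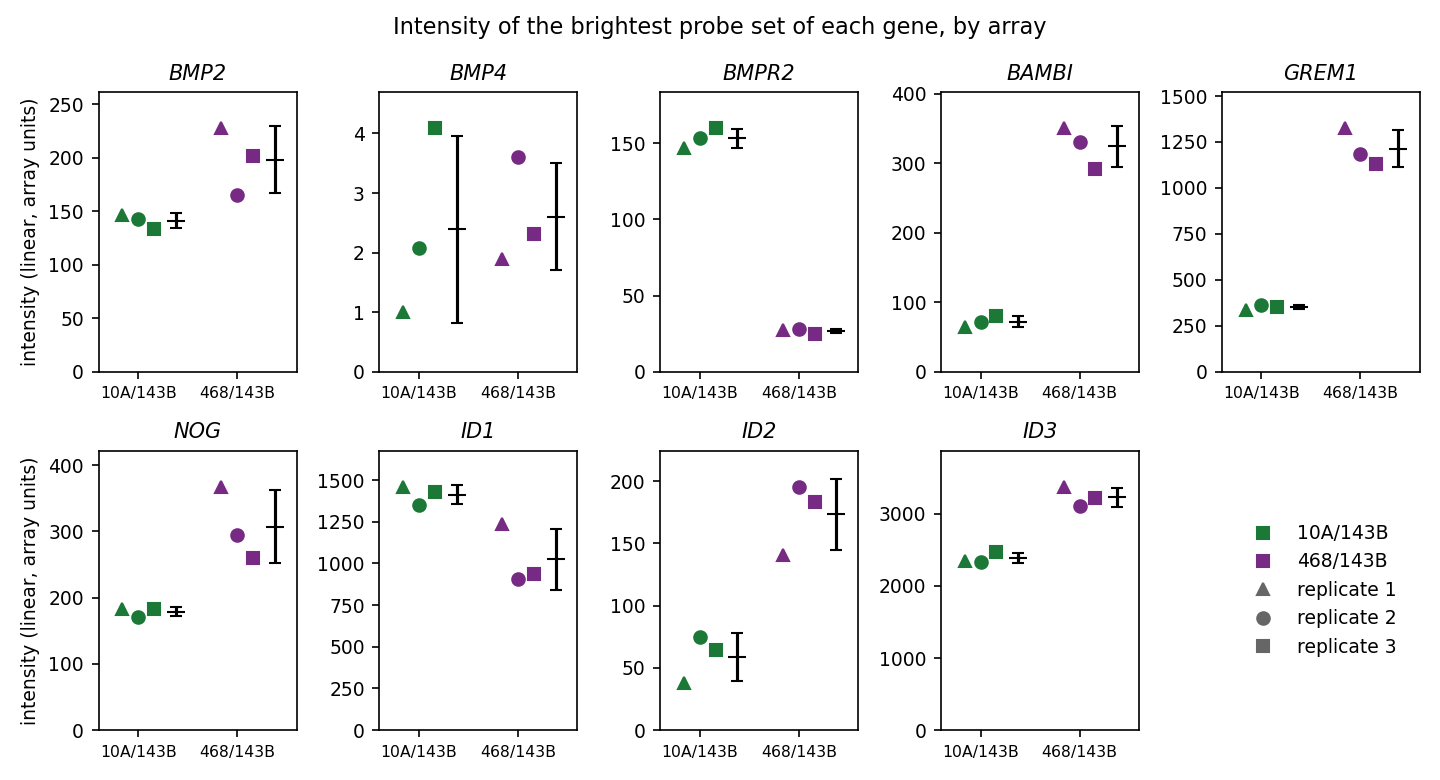
Intensity (linear, array units) of the brightest probe set of each of the 9 genes on every array, 10A/143B in green left of 468/143B in purple, marker shape by replicate, with bars for mean ± SD of 3 arrays. GREM1 reads 338 to 362 in 10A/143B, against 1128 to 1323 in 468/143B, and BMPR2 is the reverse case with 147 to 159.8 against 24.9 to 28.1, whereas the BMP4 arrays overlap.

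BMP2, a ligand able to induce bone, was lower in 10A/143B on both probe sets. Probe set 205289_at had intensities of 147, 143 and 133 in replicates 1, 2 and 3 of 10A/143B, against 228, 165 and 202 in 468/143B. The groups did not overlap, and the spread was wider in 468/143B, where replicate 2 lay nearest to the 10A/143B arrays. The difference was -0.44 ± 0.13 (log2, SE, limma adjusted p = 0.0337, averaged 0.137), 1.36-fold lower. This call was also lost without replicate 2 (limma adjusted p = 0.0924) or 3 (0.120) of 10A/143B, and without replicate 1 (0.0779) or 3 (0.108) of 468/143B. It was lost as well with the trend of differences with gene length removed (0.0802). Probe set 205290_s_at had 32.9, 76.1 and 81.6 in 10A/143B, against 140.1, 164 and 129 in 468/143B. Replicate 1 of 10A/143B lay far below the other two arrays of its group, and all 3 lay below every 468/143B array. The difference was -1.07 ± 0.26 (limma adjusted p = 0.0141, averaged 0.0441), 2.10-fold lower, and -1.67, -0.97 and -0.57 between arrays with replicate numbers 1, 2 and 3. Without replicate 2 of 468/143B the adjusted p was 0.0640.

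BMP4, a close relative of BMP2 in sequence and receptor use, gave no detectable difference. Its probe set had intensities of 1.00, 2.08 and 4.08 in 10A/143B, against 1.89, 3.61 and 2.31 in 468/143B. The groups overlapped, 1 array stood at the lowest value of the data, and the probe set's mean lay at the 2.91 percentile of all probe sets. The difference was -0.02 ± 0.10 (limma adjusted p = 0.917). At so low a signal a difference in BMP4 RNA might not be seen, and with no detection calls the signal could not be told from background. As in any bulk sample, fewer cells with a transcript and less transcript per cell cannot be told apart here.

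BMPR2, the type II receptor that is selective for BMPs and phosphorylates the type I receptor, was higher in 10A/143B. On its brightest probe set, 225144_at, intensities were 147, 153 and 159.8 in 10A/143B, against 27.1, 28.1 and 24.9 in 468/143B. Every 10A/143B array thus lay above every 468/143B array by a wide margin, with little spread within either group. The difference was 1.99 ± 0.14 (limma adjusted p = 2.78e-05, averaged 0.00248), 3.97-fold higher, the largest among the brightest probe sets of the 9 genes. Probe set 231873_at gave 91.1, 94.4 and 88.0 in 10A/143B, against 14.6, 22.2 and 12.0 in 468/143B (1.74 ± 0.18, limma adjusted p = 1.81e-04, averaged 0.0057). Again no arrays overlapped, and the 468/143B arrays spread more than those of 10A/143B. These 2 of the 6 probe sets passed in both fits.

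The other 4 BMPR2 probe sets had smaller differences. Probe set 238516_at had 45.6, 65.3 and 63.6 in 10A/143B, against 23.9, 13.2 and 12.4 in 468/143B (1.20 ± 0.22, limma adjusted p = 0.00329, averaged 0.0679). Replicate 1 was the lowest array of 10A/143B and the highest of 468/143B, and the difference between the replicate 1 arrays was 0.63, against 1.48 and 1.49 between those numbered 2 and 3. Probe set 209920_at had 60.5, 54.9 and 64.9 in 10A/143B, against 36.3, 32.4 and 41.4 in 468/143B (0.53 ± 0.17, limma adjusted p = 0.0416, averaged 0.244). Without replicate 2 or 3 of 10A/143B its adjusted p was 0.0997 and 0.168, and without replicate 1, 2 or 3 of 468/143B it was 0.0680, 0.122 and 0.0686. Median centring gave 0.43 (adjusted p = 0.0896), quantile normalization 0.37 (0.144) and removal of the gene length trend 0.35 (0.158), so this probe set passed only narrowly.

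BMPR2 probe set 210214_s_at had 62.7, 84.4 and 81.6 in 10A/143B, against 44.9, 61.0 and 54.2 in 468/143B, without overlap, and did not pass (0.41 ± 0.17, limma adjusted p = 0.118), although it did without replicate 1 of 10A/143B (0.0416) and with array weights (0.0152). Probe set 1556075_at had 17.3, 19.8 and 11.9 in 10A/143B, against 28.8, 4.66 and 1.56 in 468/143B, where replicate 1 lay above all other arrays (0.34 ± 0.33, limma adjusted p = 0.508). Without that array it was 0.76 higher (limma adjusted p = 0.0189). All 6 estimates were thus positive and ran from 0.34 to 1.99, a range wider than their standard errors, and whether the probe sets read different transcript ends was not tested. BMPR2 spans 191423 bases, and the trend of differences with gene length gave 0.18 at that length, a small part of the difference on 225144_at.

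**Figure D2:**
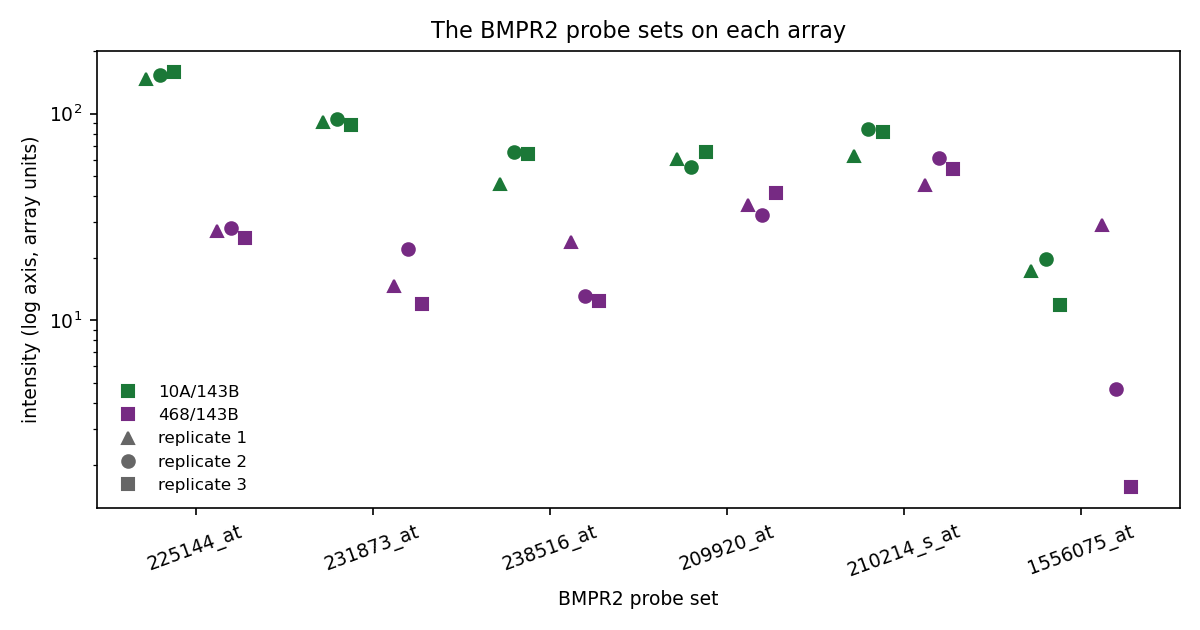
Intensity (log axis, array units) of the 6 BMPR2 probe sets, ordered by log2 difference, with 10A/143B in green left of 468/143B in purple and marker shape by replicate. The groups are far apart on 225144_at and 231873_at, close on 210214_s_at (62.7 to 84.4 against 44.9 to 61.0) and mixed on 1556075_at, where replicate 1 of 468/143B reads 28.8.

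The genes whose arrays most resembled BMPR2 (225144_at), by root mean square distance of centred log2 values over the 6 arrays, were ZBTB38 (distance 0.0434), ASAP2 (0.0481) and FRYL (0.0502). Their differences were 2.03, 1.97 and 1.91, and being chosen for likeness they are described without a test.

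BAMBI, a transmembrane protein that resembles a type I receptor but lacks its kinase and so blocks signalling, was lower in 10A/143B. Its intensities were 64.9, 71.0 and 80.4 in 10A/143B, against 349.7, 331 and 292 in 468/143B. The groups were far apart, with the gap narrowest between the replicate 3 arrays. The difference was -1.95 ± 0.12 (limma adjusted p = 1.7e-05, averaged 0.00126), 3.86-fold lower.

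GREM1, which encodes gremlin 1, a secreted protein that binds BMP2 and BMP4 and keeps them from their receptors, was lower in 10A/143B on both probe sets. Probe set 218468_s_at had 338, 362 and 352 in 10A/143B, against 1323, 1184 and 1128 in 468/143B. The difference was -1.74 ± 0.08 (limma adjusted p = 6.75e-06, averaged 8.45e-04), 3.34-fold lower. Probe set 218469_at had 352, 292 and 282 in 10A/143B, against 1314, 1201 and 1218 in 468/143B (-1.96 ± 0.09, limma adjusted p = 7.9e-06, averaged 8.71e-04), 3.89-fold lower. The probe sets thus agreed in direction and nearly in size, and both groups were tight relative to the gap between them. GREM1 is also a gene of fibroblasts and smooth muscle, and of 8 markers of those cells 10A/143B had 4 lower and 0 higher (averaged 3 and 0). Of all genes 15.2% were lower (averaged 7.74%). The lower markers were ACTA2, MYL9, PDGFRB and TAGLN, whereas CNN1, THY1, LUM and DCN did not pass. Summed over the list, intensities ran from 443 to 845 in 10A/143B, against 1322 to 1560 in 468/143B, with 0 of the 8 at the lowest value on all arrays. TAGLN, the brightest of them, ran from 241 to 613 in 10A/143B, against 695 to 936 in 468/143B. The part of these markers in the GREM1 result was not tested.

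NOG, which encodes noggin, a secreted antagonist that wraps around BMPs, was lower in 10A/143B. Its intensities were 184, 171 and 182 in 10A/143B, against 367, 294 and 259.6 in 468/143B. The 10A/143B arrays lay close together and below all 468/143B arrays, which spread widely. The difference was -0.71 ± 0.13 (limma adjusted p = 0.00316, averaged 0.0260), 1.64-fold lower, and -0.94, -0.73 and -0.47 between arrays numbered 1, 2 and 3. BAMBI, GREM1 and NOG were thus each lower in 10A/143B. Of 15 secreted antagonists and modulators beside GREM1 and NOG, described further on, 11 did not pass. Several were dim in both cybrids, such as SOST (mean intensity 5.09 in 10A/143B and 4.93 in 468/143B) and CER1 (14.4 and 17.0). At so low a signal a difference might not be seen. The bright CRIM1 (2481 and 2157) did not pass on its brightest probe set. It was higher on 202552_s_at (0.44, limma adjusted p = 0.00428, averaged 0.0674).

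**Figure D3:**
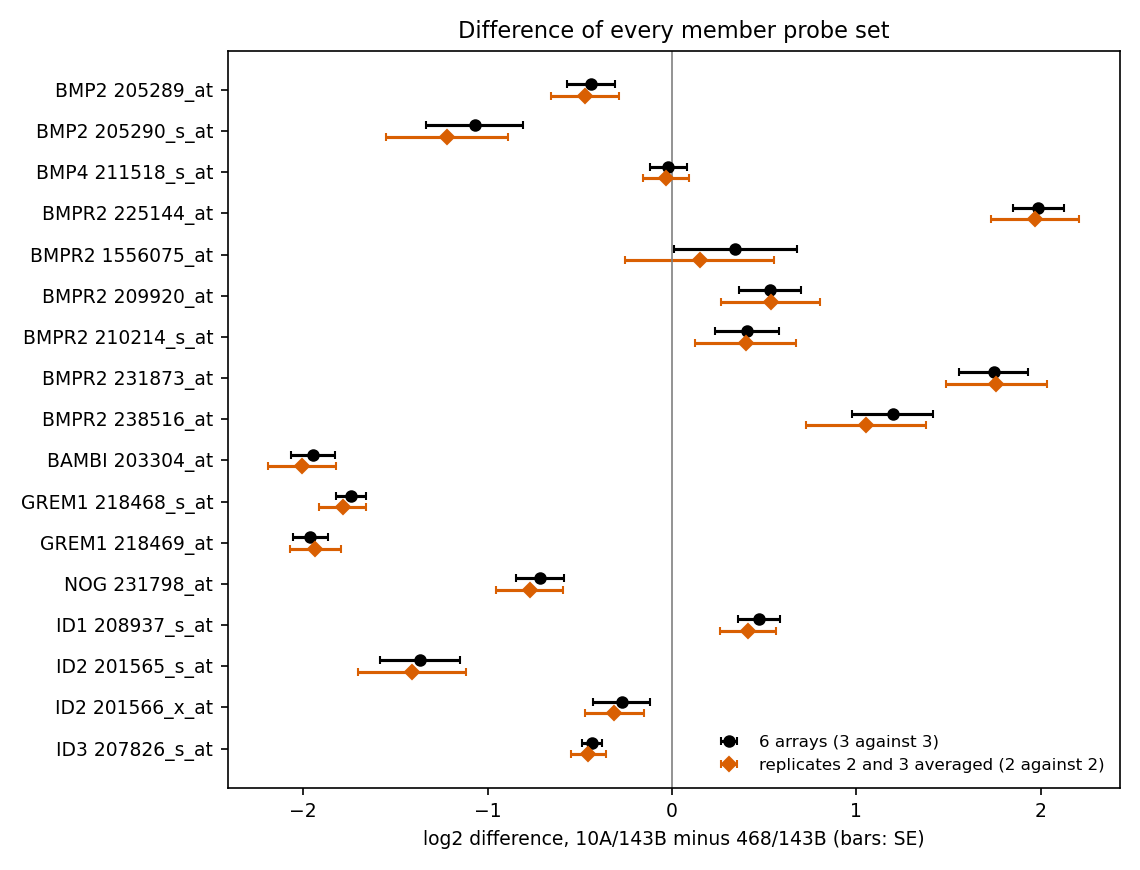
Log2 difference (10A/143B minus 468/143B) with its SE for each of the 17 probe sets, in black from 6 arrays and in orange with replicates 2 and 3 averaged. BMPR2 225144_at stands at 1.99 and both GREM1 probe sets and BAMBI between -1.96 and -1.74 in the 6-array fit, BMP4 lies near 0, and ID1 (0.47) is on the other side of 0 from ID2 and ID3.

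The ID genes, among the most direct transcriptional targets of BMP-activated SMADs, did not move together. ID1 had intensities of 1458, 1351 and 1428 in 10A/143B, against 1235, 904 and 936 in 468/143B. The groups did not overlap, although replicate 1 of 468/143B came close to the 10A/143B arrays. The difference was 0.47 ± 0.11 (limma adjusted p = 0.0141, averaged 0.116), 1.39-fold higher. It was 0.24 between the replicate 1 arrays and 0.57 and 0.60 between those numbered 2 and 3. The call was lost without replicate 2 (limma adjusted p = 0.0607) or 3 (0.0659) of 468/143B, and with median centring (0.37, 0.0589).

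ID3 had intensities of 2353, 2336 and 2469 in 10A/143B, against 3373, 3104 and 3214 in 468/143B. Both groups were tight and did not overlap. The difference was -0.43 ± 0.06 (limma adjusted p = 5.22e-04, averaged 0.0171), 1.35-fold lower. ID2 on probe set 201565_s_at had 37.5, 74.5 and 64 in 10A/143B, against 141, 195 and 184 in 468/143B. Replicate 1 was the lowest array in both groups, and every 10A/143B array lay well below every 468/143B array. The difference was -1.36 ± 0.22 (limma adjusted p = 0.00159, averaged 0.0162), 2.58-fold lower. The dim second probe set of ID2, 201566_x_at, had 3.05, 2.73 and 2.62 in 10A/143B, against 9.71, 1.96 and 9.38 in 468/143B, where replicate 2 lay below all 10A/143B arrays. It did not pass (-0.27 ± 0.15, limma adjusted p = 0.240), except without replicate 2 of 468/143B (-0.44, 0.0297). ID2 has a near-identical pseudogene copy, ID2B, and ID2 probes may not tell the pair apart.

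Other genes of the pathway were read on 1 probe set each, the brightest, for 76 of 79 genes in 7 lists. Of these, 15 were higher and 15 lower in 10A/143B (12 and 9 averaged). Of all genes 34.5% passed, 19.3% higher and 15.2% lower (averaged 20.4%, 12.7% higher and 7.74% lower). The lists' median difference was -0.07, beside -0.02. Among 11 other ligands 1 was higher and 2 lower (median -0.08, averaged 0 and 2). BMP7 (-1.33 ± 0.09, limma adjusted p = 2.86e-05, averaged 0.00222) and BMP6 (-0.95 ± 0.14, adjusted p = 0.00121, averaged 0.0241), both bone-inducing ligands, were lower. No other probe set of either passed, and both calls were lost when a gene's probe sets were averaged. A second BMP7 probe set, 209590_at, gave 0.03. BMP8B was higher (0.62 ± 0.20, adjusted p = 0.0437, averaged 0.211), a call lost without any 1 array other than replicate 1 of 468/143B (adjusted p up to 0.128). The dimmer BMP8B probe sets 207865_s_at (-0.35) and 221615_at (0.07) did not pass. Of 6 proteases that process ligands or antagonists 1 was higher and 0 lower (median -0.02, averaged 0 and 0). It was PCSK6, a proprotein convertase (0.60 ± 0.16, adjusted p = 0.0184, averaged 0.199), lost without replicate 2 or 3 of either cybrid (up to 0.103). BMP1 and PCSK5 did not pass on the brightest probe set but were lower on others. These were BMP1 207595_s_at (-1.04, limma adjusted p = 0.00701, averaged 0.0641) and PCSK5 205559_s_at (-0.68, 0.0359, averaged 0.145) and 205560_at (-0.83, 0.0259, averaged 0.137). All were lost averaged.

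Of 11 other receptors and co-receptors 2 were higher and 2 lower (median -0.06, averaged 1 and 1). ACVR2B, a type II receptor shared by activins and BMPs, was 3.31-fold higher in 10A/143B, with intensities of 343, 307 and 284, against 61.8, 89.9 and 100.4 in 468/143B (1.73 ± 0.16, limma adjusted p = 1.02e-04, averaged 0.00249). The groups were far apart, as for BMPR2, and the other ACVR2B probe sets gave 0.89 (adjusted p = 0.0428, averaged 0.151, arrays overlapping) and 0.42 (did not pass). ENG, the co-receptor endoglin, was lower (-0.90 ± 0.15, adjusted p = 0.00208, averaged 0.0413). ACVR2A, the other activin type II receptor, was lower by 0.41 ± 0.13 (adjusted p = 0.0450), but not averaged (0.330), with the replicate number as a block (0.0508) or without any 1 array other than replicate 1 of 10A/143B (up to 0.172). NEO1, a receptor of the BMP co-receptors of the RGM family, was higher on its brightest probe set (0.34 ± 0.09, adjusted p = 0.0248, averaged 0.113) and lower on 204321_at (-0.42, adjusted p = 0.00655, averaged 0.0931), so its probe sets differ in direction on 6 arrays and neither call held averaged. Its first call was also lost without replicate 3 of 10A/143B or replicates 1 or 2 of 468/143B (up to 0.0845). ACVRL1 and RGMB did not pass on their brightest probe sets (-0.14 and 0.36) but were lower on others. These were the dim ACVRL1 226950_at (-0.77, limma adjusted p = 0.0134, averaged 0.0335) and RGMB 227339_at (-0.47, limma adjusted p = 0.0105, averaged 0.0679).

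Of 15 other secreted antagonists and modulators 1 was higher and 3 lower (median -0.11, averaged 1 and 1). FST, which encodes the activin and BMP antagonist follistatin, had intensities of 362, 428 and 465 in 10A/143B, against 676, 898 and 867 in 468/143B (-0.93 ± 0.13, limma adjusted p = 7.92e-04, averaged 0.0112). Its arrays did not overlap, and of its other probe sets 207345_at was lower (-0.59, averaged adjusted p = 0.126) and 226847_at did not pass (-0.20). FSTL3, a follistatin relative (-0.57 ± 0.14, adjusted p = 0.0159, averaged 0.118), and NBL1, the DAN-family antagonist (-0.51 ± 0.13, adjusted p = 0.0148, averaged 0.105), were lower on 6 arrays only. Both calls were lost without replicate 2 or 3 of 468/143B (up to 0.0717 for FSTL3 and 0.0680 for NBL1). TWSG1, which binds both BMPs and chordin, was higher (0.65 ± 0.08, adjusted p = 3.29e-04, averaged 0.00693). Its other probe set, 219201_s_at, did not pass (0.43, adjusted p = 0.177, arrays overlapping).

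Of 17 SMADs and intracellular regulators 7 were higher and 2 lower (median 0.01, averaged 7 and 1). The lower 2 were FKBP1A (-0.73 ± 0.16, limma adjusted p = 0.00822, averaged 0.0423) and SMAD7 (-0.53 ± 0.17, limma adjusted p = 0.0434, averaged 0.296). FKBP1A was also lower on each of its other probe sets, and these calls held averaged (limma adjusted p up to 0.00767). SMAD1 (0.60 ± 0.14, limma adjusted p = 0.0101, averaged 0.0474) and SMAD9 (0.68 ± 0.15, adjusted p = 0.00832, averaged 0.0473), signal transducers of BMP receptors, were higher in 10A/143B. SMAD1 was also higher on 227798_at (0.62, averaged adjusted p = 0.0286). The other SMAD9 probe set, 206320_s_at, was dim and did not pass (-0.11). SMAD5, the other BMP SMAD, was higher on 225219_at (1.48 ± 0.13, adjusted p = 8.19e-05, averaged 0.00175), 225223_at (1.35, averaged 0.00162) and 235451_at (0.39, averaged 0.138). On 205188_s_at SMAD5 was lower on 6 arrays (-0.47, adjusted p = 0.0131), a call lost averaged (0.120). SMAD4, SMURF2 and PPM1A did not pass on the brightest probe set but were higher on others. These were SMAD4 235725_at (1.77, averaged limma adjusted p = 0.00113) and 1565703_at (0.96, 0.0353) and SMURF2 227489_at (1.46, 0.00137) and 232020_at (1.89, 0.00303). PPM1A was higher on 227728_at (2.40, 0.0011) and 235344_at (1.53, 0.0105). Among genes of this list that did not pass, lower calls on other probe sets fell on SMURF1 and SMAD6 and were lost averaged. SMURF1 was higher on the dim 232665_x_at (0.76, limma adjusted p = 0.00238, averaged 0.0257), so its probe sets differ in direction. XIAP, which links BMP receptors to the kinase TAK1, was higher (1.16 ± 0.16, adjusted p = 8.7e-04, averaged 0.00667). MAP3K7, the gene of TAK1, was higher too (0.83 ± 0.10, adjusted p = 3.98e-04, averaged 0.00708), on all 4 of its probe sets (3 averaged). TOB1, an antiproliferative protein that represses BMP SMADs in mouse bone cells, was higher (0.79 ± 0.09, adjusted p = 3e-04, averaged 0.0126), but did not pass on 228834_at (0.49, adjusted p = 0.187).

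Of 13 other targets of BMP signalling 1 was higher and 5 lower (median -0.23, averaged 1 and 4). The homeobox gene MSX2 had intensities of 155, 139 and 149 in 10A/143B, against 419, 481 and 455 in 468/143B (-1.51 ± 0.09, limma adjusted p = 1.71e-05, averaged 0.00165). DLX5, a homeobox gene of osteoblasts (-1.30 ± 0.12, adjusted p = 1.05e-04, averaged 0.00361), and the AP-1 gene JUNB (-0.86 ± 0.11, adjusted p = 5.2e-04, averaged 0.0126) were lower too. MSX1, the relative of MSX2, was higher (0.78 ± 0.14, adjusted p = 0.00325, averaged 0.0300), so the MSX pair went opposite ways. The calls of MSX1 and MSX2 were lost when a gene's probe sets were averaged. ID4 did not pass on its brightest probe set (-0.23 ± 0.21, adjusted p = 0.487), while 209293_x_at was lower on 6 arrays (-0.75, adjusted p = 0.0104) but not averaged (0.0849).

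Of the 3 E proteins that ID proteins bind, 2 were higher and 1 lower in 10A/143B (median 0.67, averaged 2 and 0). TCF12 had intensities of 1846, 2091 and 2135 in 10A/143B, against 1218, 1269 and 1305 in 468/143B (0.67 ± 0.07, limma adjusted p = 1.88e-04, averaged 0.00818), and its 3 other probe sets were higher as well (2 averaged). TCF4 was higher (0.88 ± 0.18, adjusted p = 0.00523, averaged 0.0163), and all 7 of its further probe sets were higher too (6 averaged). TCF3 was lower (-0.29 ± 0.07, adjusted p = 0.0168, averaged 0.190), as it was on 4 of its other probe sets (209151_x_at, 209152_s_at, 210776_x_at and 213730_x_at), of which 209151_x_at held averaged (adjusted p = 0.0238). Since 209153_s_at was higher (0.92, averaged 0.00432), TCF3 has no settled direction. The call on its brightest probe set was lost without replicate 2 or 3 of 10A/143B or replicate 2 of 468/143B (up to 0.0805).

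**Figure D4:**
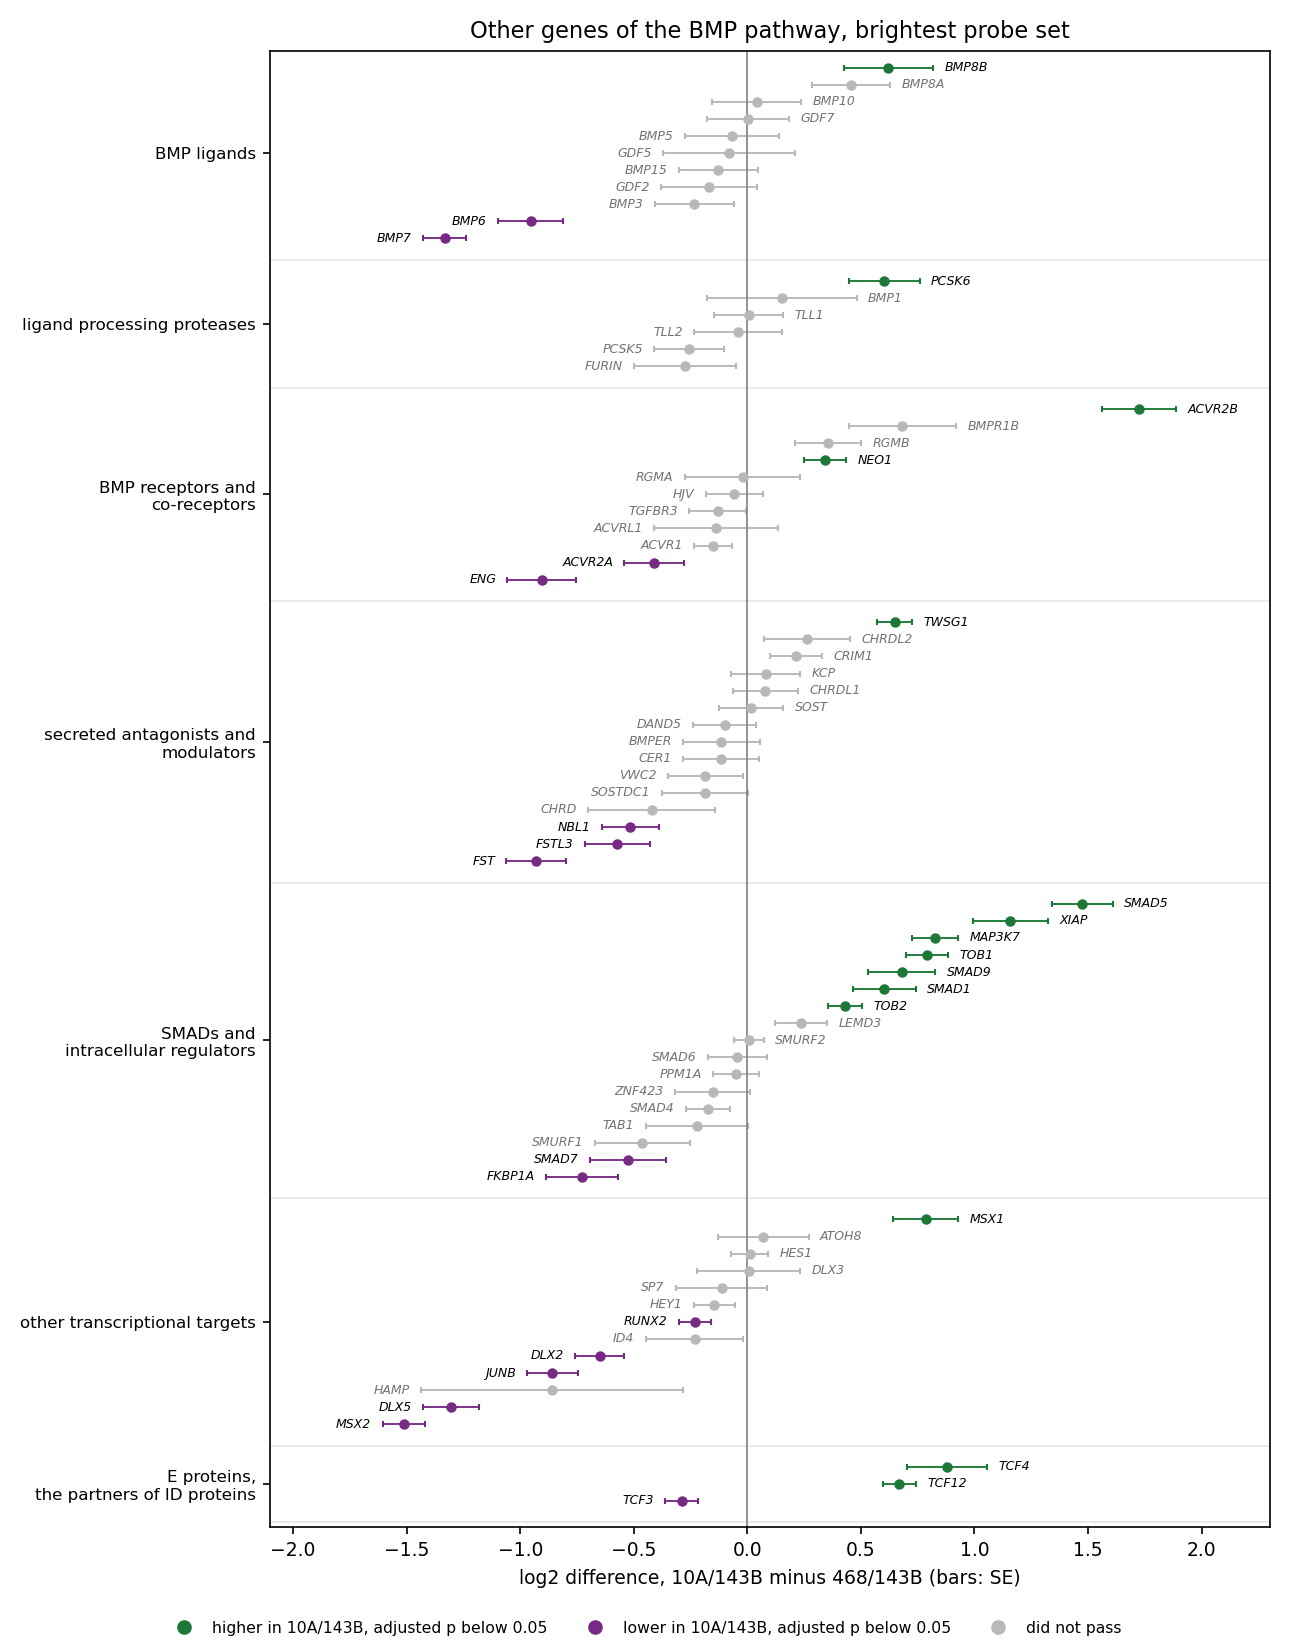
Log2 difference (10A/143B minus 468/143B) with its SE for the brightest probe set of 76 other genes of the pathway, by list, in green where higher, in purple where lower at an adjusted p below 0.05 on 6 arrays, and in grey where the gene did not pass. ACVR2B (1.73) and SMAD5 (1.48) lie farthest to the right, MSX2 (-1.51) and BMP7 (-1.33) farthest to the left. On the probe set shown, 46 genes did not pass, some of which passed on another probe set.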

How the data were processed

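The authors deposited linear array intensities, with a value for every probe set on each array, and per the labels' protocols the RNA was extracted in triplicate and biotin-labelled. The sources used here do not give summary algorithm, background correction or scaling. Values ran from 1 to 13125, without detection calls. Probe sets with 1 symbol and no control were used (41091 of 54675), with 41037 symbols updated through Entrez identifiers to RefSeq genes of GRCh38.p14. A gene's brightest probe set is that with the highest mean over 6 arrays. Groups and replicate numbers came from the source names. The sample titles instead name the donor lines MCF10A and MDA-468 and number the arrays otherwise, with replicate 1 of each group titled 3. Log2(intensity + 16) was fitted with limma 3.58.1 in R 4.3.3 (lmFit, eBayes with trend; difference 10A/143B minus 468/143B; Benjamini-Hochberg over 41091 probe sets, threshold 0.05). The fit was also run on simulated arrays drawn independently of each other, which cannot show what near-duplicate replicates do to the calls. Deviations from group means of same-numbered arrays correlated at 0.25, 0.16 and 0.11. Replicates 2 and 3 correlated as much across numbers (0.13 and 0.14), and replicate 1 with either at -0.23 to -0.15, so the check sets replicate 1 apart but does not pair 2 with 2 and 3 with 3. A fit with the number as a block was run.

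Members and lists were chosen with earlier results of these data known. Text names all members, and of each other list up to 4 genes past the threshold with the largest difference (with none past it, the smallest p), plus ID4, SMAD1, SMAD5 and SMAD9. SMAD4, SMAD6, SMURF1, SMURF2, PPM1A, CRIM1, ACVRL1, RGMB, BMP1, PCSK5, SOST and CER1 are named for other probe sets or dim signal, chosen after seeing the data. FKBP1A and SMAD7 are named as the lower genes of their list, also after seeing the data. Marker lists held 34 measured genes. Of all genes, 19.3% were higher and 15.2% lower in 10A/143B. Of 4 basal markers 0 were higher and 0 lower, of 8 epithelial 0 and 3, of 7 osteoblast 1 and 2, of 8 fibroblast and smooth muscle 0 and 4, and of 7 blood and endothelial 1 and 0. Alternatives covered offset, scaling, level filter, block, averaging, arrays left out, trend, array weights and the choice of probe sets. Removal of the gene length trend and replicates 2 and 3 alone were added after seeing the data.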

Additional observations from a re-analysis of the deposited data

How the results depend on the processing

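All calls of GREM1, BAMBI, NOG, ID3, ID2 (201565_s_at) and BMPR2 (225144_at and 231873_at) kept direction and stayed past the threshold under every alternative run on them. Of 17 member probe sets 5 were higher and 8 lower; the replicate block gave 5 and 8 and changed no member's call. The 5 became 3 with median centring, 2 averaged, and 2 with 1 probe set per gene or averaged probe sets (9 genes), and ranged from 3 to 6 with 1 array left out. The 8 became 4 without _x_at and _s_at probe sets (9 probe sets left). Of the pathway genes, the 15 lower became 9 averaged, 9 with mean probe sets, 7 without _x_at and _s_at probe sets, and 9 to 17 with 1 array left out. Over all probe sets, 7662 higher and 5082 lower became 4819 and 2522 averaged, 3929 and 3113 with 1 probe set per gene, 3425 and 2721 with mean probe sets, and the lower ones 7755 with array weights and 2703 without _x_at and _s_at probe sets. Median centring shifted the median of all probe sets by -0.10, and 60.1% of calls were higher as deposited, 50.01% after centring and 51.4% after quantile normalization. BMP4's difference of -0.02 changed sign with array weights (0.014), replicates 2 and 3 only (0.0084), removal of the length trend (0.10) and 1 array left out (-0.084 to 0.036), never past the threshold. Cause was not tested beyond fewer probe sets or samples where a setting removes them. With 3 arrays a group and near-duplicate replicates, small differences have little support, and dim probe sets (BMP4, 201566_x_at) limit what can be seen.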
